A study of Homo sapiens with 6 samples.

Results

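The genes described here encode the proteins that fill, empty and sense the calcium store of the endoplasmic reticulum (ER). They comprise the SERCA pumps ATP2A2 and ATP2A3, the inositol trisphosphate (IP3) receptors ITPR1, ITPR2 and ITPR3, the sensors STIM1 and STIM2, the plasma membrane channel ORAI1 and the ER membrane protein TMCO1. The set was defined by gene name, with no threshold on measured values, though earlier results of these data were known. All 9 were found among the 64299 rows of the deposited count table by Ensembl identifier, and all 9 passed the filter on low counts, as did 16243 genes in all. RNA had been sequenced from HEK293T, a transformed human embryonic kidney line, in 3 libraries labelled ERbeta and 3 labelled EV_Ctrl. Cells of the ERbeta group carried a plasmid labelled ERbeta or ER-β, taken from background knowledge of the study to encode a designed β-sheet protein sent into the ER and not the estrogen receptor. Cells of the EV_Ctrl group carried an empty vector. All cells had thus been through lipid transfection, and neither the time after transfection nor the share of cells that took up plasmid is given in the sources used here.

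The ER lumen holds far more free calcium than the cytosol, and many ER chaperones need this calcium to fold proteins. SERCA pumps move calcium into the lumen at the cost of ATP, and IP3 receptors let it out when hormones or growth factors raise IP3. When the lumen empties, the STIM proteins in the ER membrane cluster and open ORAI channels in the plasma membrane, a process called store-operated calcium entry. Loss of luminal calcium, for instance after a SERCA inhibitor, is a standard way to provoke ER stress.

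Total counts were 6833442 to 27101644 per library, and the reads on a member summed over the 6 libraries ranged from 479 for ATP2A3 to 35569 for ATP2A2. The libraries did not separate by group alone. On the first principal component of log2 CPM, EV_Ctrl 1 and 3 lay at 44.7 and 41.5, whereas EV_Ctrl 2, at -13.9, lay within the ERbeta range of -42.1 to -13.9. The libraries also differed in how levels varied with the GC content of a transcript. In the third of tested genes with the least GC (up to 44.4%), the median deviation of log2 CPM from the gene's mean was -0.301 and -0.247 in EV_Ctrl 1 and 3, 0.093 in EV_Ctrl 2 and 0.081 to 0.332 in ERbeta. Values without EV_Ctrl 2 are therefore given for the members and shares that separate along this split. They are also given for each other named gene whose call changes. EV_Ctrl 2 was singled out from these same data, as the control nearest to ERbeta on the first principal component. Leaving it out favours a difference between the groups, so adjusted p-values without it are descriptive and not independent support. Without EV_Ctrl 1 or without EV_Ctrl 3 instead, edgeR's test called 0 genes. All 6 markers listed for HEK293 (such as VIM, KRT8 and KRT18) had passed the filter, with a summed level of 1500 to 1620 CPM in ERbeta and 1520 to 1700 CPM in EV_Ctrl. Of 14 markers of blood, liver, fibroblast, endothelial and muscle cells 3 passed, COL1A1, COL3A1 and ACTA1, and the whole set summed to 17.3 to 26.7 CPM in ERbeta and 21.4 to 36.6 CPM in EV_Ctrl. PAX2, a kidney marker, was at 3.65 to 12.1 CPM.

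None of the ER calcium genes passed the test between ERbeta and EV_Ctrl. At an adjusted p of 0.05 (edgeR, quasi-likelihood F test, Benjamini-Hochberg over all 16243 genes), 0 of the 9 members and 0 genes (0%) in all were called. The adjusted p of the members ran from 0.401 to 0.918. At an unadjusted p under 0.05 there were 0 of the 9, against 2018 genes (12.4%) in all, 9.54% higher and 2.88% lower in ERbeta. The ERbeta and EV_Ctrl libraries overlapped for every one of the 9, whereas they did not overlap for 18.7% of all tested genes (10.2% higher, 8.48% lower in ERbeta). Set against EV_Ctrl 1 and 3 alone, all ERbeta libraries were higher for 3 members (ITPR2, TMCO1 and STIM2) and lower for 3 (ITPR3, STIM1 and ORAI1), against 25.7% and 19.8% of all tested genes (45.6% in all). EV_Ctrl 2 fell within the ERbeta range for 7 of 9 members, ATP2A2 and STIM2 being the others, and for 60.6% of all tested genes. Log2 fold changes were positive for 5 and negative for 4, with a median of 0.04, against 48.3% positive and a median of -0.01 over all tested genes. DESeq2 called 57 of 17104 genes (0.333%, of which 0.327% were higher and 0.00585% lower) and 0 members. Left without EV_Ctrl 2, edgeR's test called 2324 of 16259 genes (14.3%, or 13.5% higher and 0.775% lower) and 1 member, ITPR2. With a correction for GC content as well it called 1637 of 16144 genes (10.1%, or 5.88% higher and 4.26% lower) and 2 members, ITPR2 higher and TMCO1 lower. With GC correction and all libraries 0 genes were called, and 1716 of 16091 (10.7%) had an unadjusted p under 0.05, among them 1 member, TMCO1. In these bulk libraries a change in the share of cells that hold an mRNA and a change in its amount per cell cannot be told apart.

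**Figure D1:**
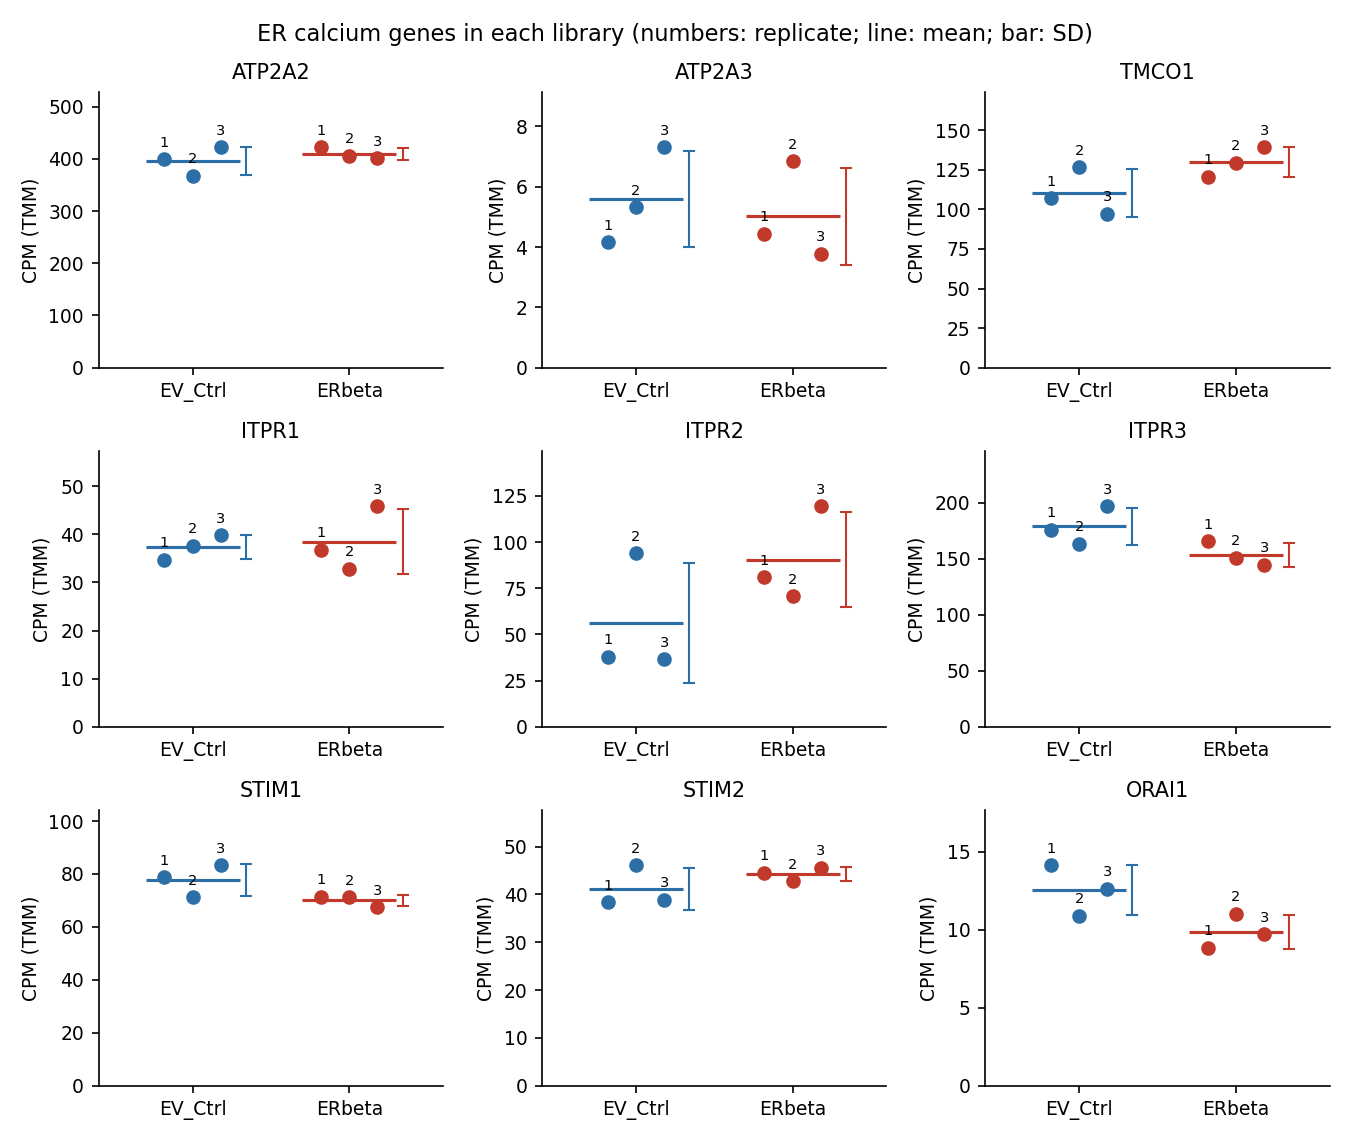
Level of each ER calcium gene in CPM (counts per 1e+06 counts after TMM scaling) in the 3 EV_Ctrl and 3 ERbeta libraries, with the mean as a line and the SD as a bar beside it. Groups overlap in every panel, and in that of ITPR2 the control EV_Ctrl 2 lies at 94.0 CPM, among the ERbeta libraries and away from the other controls at 37.8 and 36.7 CPM.

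Levels of different genes were compared per kb of the longest coding transcript, as TMM-normalised CPM per kb averaged over all 6 libraries. ATP2A2 was by far the most abundant, at 90.6 ± 4.50 CPM per kb (SD, n = 6). TMCO1 followed at 26.9 ± 3.46 CPM per kb, and its lowest library, at 21.7, was above the highest of the next gene. STIM1 and ITPR3 came next at 17.0 ± 1.36 and 16.9 ± 1.90 CPM per kb, with ranges that overlapped. STIM2 at 8.28 ± 0.653, ORAI1 at 7.49 ± 1.29 and ITPR2 at 6.42 ± 2.83 CPM per kb also overlapped with their neighbours in this order. The range of ITPR2 (3.21 to 10.5 CPM per kb) took in that of ITPR1, which was at 3.72 ± 0.448. ATP2A3 was lowest, at 1.10 ± 0.305 CPM per kb, below every other member in every library. The order of the neighbours depends in part on which transcript is taken for the length.

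The pump ATP2A2 (SERCA2), the housekeeping calcium pump of the ER in most tissues, did not differ between the groups beyond the spread of the libraries. It lies on chromosome 12, from 110280756 to 110351093 on the plus strand (ENSG00000174437.14; positions here are those of GENCODE 29, GRCh38). It was at 423, 406 and 401 CPM in ERbeta 1, 2 and 3 and at 400, 368 and 422 CPM in EV_Ctrl 1, 2 and 3. No ERbeta library lay outside the control range by more than 1 CPM, and the lowest value was that of EV_Ctrl 2. The log2 fold change was 0.05 ± 0.09 (SE, edgeR; adjusted p = 0.824), with a 95% interval in fold terms of 0.891 to 1.2. In the same libraries HSPA5, the ER chaperone BiP and a landmark of ER stress, was at 870 to 888 CPM in ERbeta against 501 to 536 CPM in EV_Ctrl (log2 fold change 0.75 ± 0.08, edgeR adjusted p = 0.13). HERPUD1, an ER stress gene of protein degradation, was at 57.1 to 88.0 against 29.8 to 38.2 CPM (1.16 ± 0.19, edgeR adjusted p = 0.256). Without EV_Ctrl 2 both passed, HSPA5 at 0.78 (edgeR adjusted p = 0.000665) and HERPUD1 at 1.07 (edgeR adjusted p = 0.00214). With GC correction as well they stayed past the threshold, at 0.70 and 1.07 (edgeR adjusted p = 0.00256 and 0.00122). With all libraries neither landmark passed edgeR's test, and no tested gene had a lower edgeR adjusted p than the 0.13 of HSPA5. GC correction with all libraries gave edgeR adjusted p = 0.0516 for HSPA5 and 0.0661 for HERPUD1. For each of these landmarks every ERbeta library was above every EV_Ctrl library, as was the case for 10.2% of all tested genes.

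The promoters of ATP2A2 and HSPA5 are shown side by side, since both genes serve the ER and only HSPA5 had groups without overlap. The ER stress response element (ERSE), CCAAT and CCACG with 9 bases of any kind between them, is the sequence through which ATF6 and XBP1 act with NF-Y on chaperone genes. The sequences are the 250 bases before a RefSeq start site in GRCh38.p14, on the gene's own strand, at chr12:110280997-110281246 (plus strand) for ATP2A2 and chr9:125241344-125241593 (minus strand) for HSPA5. Capitals mark CCAAT and CCACG on either strand and the nearest match to the ERSE.
ATP2A2: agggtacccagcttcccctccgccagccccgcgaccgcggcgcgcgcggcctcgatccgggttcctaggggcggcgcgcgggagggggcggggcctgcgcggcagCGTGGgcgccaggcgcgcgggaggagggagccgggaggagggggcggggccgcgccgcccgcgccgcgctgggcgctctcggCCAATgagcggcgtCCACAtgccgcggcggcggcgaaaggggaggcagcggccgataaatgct
HSPA5: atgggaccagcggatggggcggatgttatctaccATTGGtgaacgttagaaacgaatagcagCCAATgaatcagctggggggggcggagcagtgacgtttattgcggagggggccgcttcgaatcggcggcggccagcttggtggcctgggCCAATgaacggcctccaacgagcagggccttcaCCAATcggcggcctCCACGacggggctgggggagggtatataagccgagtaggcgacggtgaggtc
The HSPA5 window holds 1 full ERSE, starting 66 bases before the start site, and 3 further CCAAT boxes. The ATP2A2 window holds 0 full ERSE but a near match 63 bases before the start site, CCAATgagcggcgtCCACA, which differs from the element by G19A (positions counted from 1 at the element's 5′ end). Over 35116 promoter windows of 300 bases in RefSeq, searched on both strands, the full ERSE was found in 27 (0.0769%), and a match with at most 1 of its 10 fixed letters different in 545 (1.55%). Of the 11 windows of the 6 members with an entry (ATP2A2, ITPR1, ITPR3, STIM1, STIM2 and TMCO1; ATP2A3, ITPR2 and ORAI1 have none), 0 held the full element and 1, that of ATP2A2, held the near match. Other elements of the unfolded protein response, ERSE-II (ATTGG and CCACG with any 1 base between them) and TGACGTGG (UPRE), were in 0 of the 11, against 0.0541% and 0.729% of all windows. The part letters CCAAT and CCACG, which also lie inside the ERSE, were in 5 and 7 of the 11, against 34.6% and 38.1% of all windows. Some of the 4 windows of STIM1 overlap, as do the 2 of TMCO1. The 11 are thus not separate promoters, and the same letters can count more than once. A match of letters is a description and not a site, and whether these letters bear on the level of either gene was not tested.

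The other SERCA gene, ATP2A3 (SERCA3), which is best known from blood and epithelial cells, was scarce. It lies on chromosome 17, from 3923870 to 3964464 on the minus strand (ENSG00000074370.15). It was at 4.45, 6.84 and 3.77 CPM in ERbeta 1, 2 and 3 and at 4.16, 5.32 and 7.31 CPM in EV_Ctrl 1, 2 and 3. High and low libraries occurred in each group, and the log2 fold change of -0.16 ± 0.28 (edgeR adjusted p = 0.804) had an interval of 0.568 to 1.4 in fold terms. Without EV_Ctrl 3 its sign turned, to 0.05, and without ERbeta 2 it was -0.45. Per kb, ATP2A2 made up 98.4% to 99.1% of the reads on this pair of pumps in every library.

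TMCO1 encodes a small ER membrane protein that has been described both as a calcium-selective channel opened by an overfilled store and as a part of a translocon complex for membrane proteins with several spans. The gene lies on chromosome 1, from 165724293 to 165827755 on the minus strand (ENSG00000143183.14). It was at 120.5, 129 and 139 CPM in ERbeta 1, 2 and 3 and at 107, 127 and 97.1 CPM in EV_Ctrl 1, 2 and 3. All ERbeta libraries were above EV_Ctrl 1 and 3, and EV_Ctrl 2 fell among them. The log2 fold change was 0.23 ± 0.13 (edgeR adjusted p = 0.452, fold interval 0.957 to 1.44). Without EV_Ctrl 2 it was 0.35 (edgeR adjusted p = 0.0905) and with EV_Ctrl 2 as the only control 0.04. TMCO1 has the lowest GC content of the members, 36.8%, and its direction turned with a correction for GC content, to -0.37 with all libraries (edgeR adjusted p = 0.463). Corrected and without EV_Ctrl 2 it was -0.49 (edgeR adjusted p = 0.013), so that the sign of this gene depends on the correction. Its exons share bases with the opposite-strand gene UCK2, which had 556 to 1857 reads per library against 773 to 3361 for TMCO1, and the strand setting of the counting is not given in the sources used here.

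Among the IP3 receptors, ITPR2 showed the largest difference of all members and the widest spread. ITPR2 encodes the type with the highest affinity for IP3, prominent in heart, liver and secretory cells. The gene lies on chromosome 12, from 26336515 to 26833198 on the minus strand (ENSG00000123104.9). Its level was 80.8, 70.7 and 119.5 CPM in ERbeta 1, 2 and 3, against 37.8, 94.0 and 36.7 CPM in EV_Ctrl 1, 2 and 3. All ERbeta libraries were above EV_Ctrl 1 and 3, whereas EV_Ctrl 2 was above ERbeta 1 and 2 and stood 2.52-fold over the mean of the other controls. The log2 fold change was 0.67 ± 0.38 (edgeR adjusted p = 0.465), and the interval of 0.859 to 2.96 in fold terms is the widest of the 9. Without EV_Ctrl 2 ITPR2 was the 1 member that passed, at 1.28 (edgeR adjusted p = 0.00124), where 13.5% of all tested genes were called higher. With EV_Ctrl 2 as the only control it was at -0.06, the lone control being assumed to vary like the ERbeta libraries. Without ERbeta 3, the library with the highest value, it was at 0.42. GC correction gave 0.46 with all libraries (edgeR adjusted p = 0.558) and 0.92 without EV_Ctrl 2 (edgeR adjusted p = 0.00189). The fitted fold with all libraries was 1.59.

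ITPR3, the receptor type common in epithelial and dividing cells, lies on chromosome 6, from 33620365 to 33696574 on the plus strand (ENSG00000096433.8). It was at 165.5, 151 and 144.5 CPM in ERbeta 1, 2 and 3 and at 176, 164 and 197 CPM in EV_Ctrl 1, 2 and 3. The ERbeta libraries were all below EV_Ctrl 1 and 3, with EV_Ctrl 2 again among them. The log2 fold change was -0.22 ± 0.11 (edgeR adjusted p = 0.421, fold interval 0.719 to 1.03), and it was -0.27 without EV_Ctrl 2 (edgeR adjusted p = 0.19), -0.08 after GC correction and -0.09 with EV_Ctrl 2 as the only control. Its exons share bases with the opposite-strand gene UQCC2, at 580 to 2197 reads per library. ITPR1, the main type of neurons, lies on chromosome 3, from 4493345 to 4847840 on the plus strand (ENSG00000150995.15). It was at 36.8, 32.8 and 45.9 CPM in ERbeta 1, 2 and 3 and at 34.8, 37.7 and 39.8 CPM in EV_Ctrl 1, 2 and 3. Its values mixed fully between the groups, at a log2 fold change of 0.04 ± 0.15 (edgeR adjusted p = 0.918, fold interval 0.809 to 1.3), and its sign turned without ERbeta 3 (-0.10), without EV_Ctrl 1 (-0.01) and with library size only (-0.06).

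IP3 receptors act as tetramers and can mix subunits, so their proportions were also compared within each library, where they do not depend on the scaling between libraries. Per kb, ITPR3 made up most of the receptor reads in 5 of 6 libraries, at 61.0%, 61.9% and 49.4% in ERbeta 1, 2 and 3 and at 72.6%, 58.2% and 73.7% in EV_Ctrl 1, 2 and 3. ITPR2 took 25.8%, 25.1% and 35.4% in ERbeta 1, 2 and 3, but 13.5%, 28.9% and 11.9% in EV_Ctrl 1, 2 and 3. The share of ITPR1 stayed at 13% to 15.2% throughout. The mean share of ITPR2 was 28.8 ± 5.74% in ERbeta and 18.1 ± 9.39% in EV_Ctrl (SD, n = 3 each), a difference of 10.7 percentage points (exact two-sided permutation p = 0.3, adjusted p = 0.6 over 8 shares compared). With 3 libraries a group the exact test cannot go below 0.1. Without EV_Ctrl 2 the difference was 16.1 percentage points, and against EV_Ctrl 2 alone it was -0.136 percentage points. The ITPR3 share differed by -10.7 percentage points with all libraries (exact two-sided permutation p = 0.3) and by -15.7 without EV_Ctrl 2. These proportions compare genes of different GC content (42.1% in ITPR2, 59.1% in ITPR3), and the part of the libraries' GC trends in them was not tested.

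**Figure D2:**
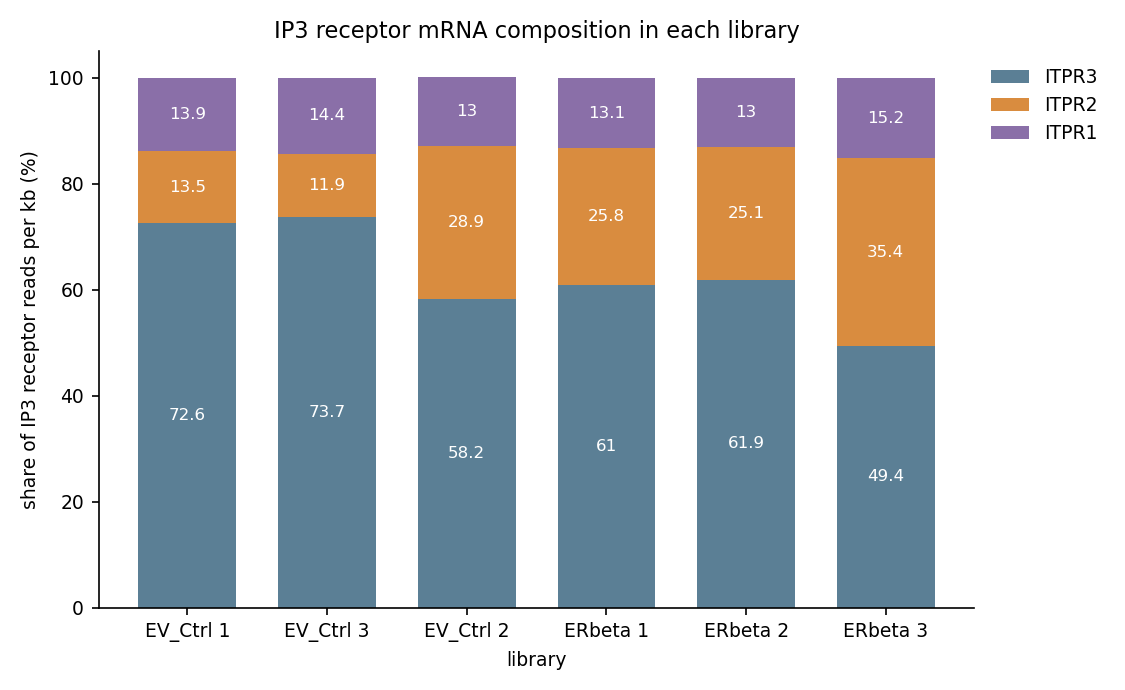
Share of ITPR1, ITPR2 and ITPR3 in the IP3 receptor reads per kb of each library, in percent, with EV_Ctrl 1 and 3 placed first. The ITPR2 share is 13.5% and 11.9% in these 2 controls and 25.1% to 35.4% in EV_Ctrl 2 and the ERbeta libraries.

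Store-operated entry was represented by the sensors and their channel. STIM1, the main sensor of a depleted store, lies on chromosome 11, from 3854527 to 4093210 on the plus strand (ENSG00000167323.7). It was at 71.3, 71.2 and 67.5 CPM in ERbeta 1, 2 and 3 and at 78.7, 71.2 and 83.3 CPM in EV_Ctrl 1, 2 and 3. EV_Ctrl 2 was at the level of ERbeta 1 and 2, and the other controls were above all ERbeta libraries. The log2 fold change was -0.15 ± 0.10 (edgeR adjusted p = 0.536, fold interval 0.761 to 1.07), or -0.20 without EV_Ctrl 2 (edgeR adjusted p = 0.339) and -0.04 after GC correction. STIM2, which responds to smaller drops of luminal calcium and helps to set the resting level, lies on chromosome 4, from 26857678 to 27025381 on the plus strand (ENSG00000109689.12). It was at 44.5, 42.7 and 45.6 CPM in ERbeta 1, 2 and 3 and at 38.4, 46.1 and 38.8 CPM in EV_Ctrl 1, 2 and 3. Here EV_Ctrl 2 was the highest library of all and the other controls were the lowest. The log2 fold change was 0.10 ± 0.12 (edgeR adjusted p = 0.699, fold interval 0.889 to 1.3), and it was 0.20 without EV_Ctrl 2 (edgeR adjusted p = 0.363). It turned to -0.03 with GC correction and to -0.06 with EV_Ctrl 2 as the only control. Per kb, STIM1 made up 63.7% to 66.3% of the STIM reads in ERbeta, 64.6% in EV_Ctrl 2, and 70.8% and 71.7% in EV_Ctrl 1 and 3 (exact two-sided permutation p = 0.3 for the difference of means, -3.89 percentage points). Without EV_Ctrl 2 the difference was -6.11 percentage points, and against EV_Ctrl 2 alone 0.546.

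ORAI1, the pore-forming subunit of the calcium release-activated channel, lies on chromosome 12, from 121626550 to 121642677 on the plus strand (ENSG00000276045.1). It was at 8.83, 11.0 and 9.71 CPM in ERbeta 1, 2 and 3 and at 14.1, 10.9 and 12.6 CPM in EV_Ctrl 1, 2 and 3. Only ERbeta 2 and EV_Ctrl 2 overlapped. It had the smallest unadjusted p of the 9, at a log2 fold change of -0.34 ± 0.15 (edgeR adjusted p = 0.401, fold interval 0.618 to 1.02). Without EV_Ctrl 2 it was at -0.43 (edgeR adjusted p = 0.149), with EV_Ctrl 2 as the only control at -0.14, and after GC correction at -0.12. The depth here was 102 to 289 reads per library, and GENCODE 29 tags this locus with an error of the reference genome. Its paralogs ORAI2, at 48.3 to 53.4 CPM in ERbeta and 50.9 to 58.6 CPM in EV_Ctrl, and ORAI3, at 4.20 to 6.32 against 6.22 to 6.65 CPM, had log2 fold changes of -0.14 ± 0.11 and -0.36 ± 0.19 (edgeR adjusted p = 0.568 and 0.44). Per kb, ORAI1 made up 46.3% to 50.1% of the ORAI reads in ERbeta and 49.2% to 53.0% in EV_Ctrl, with exact two-sided permutation p = 0.4. The ORAI1 shares of the groups overlapped.

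**Figure D3:**
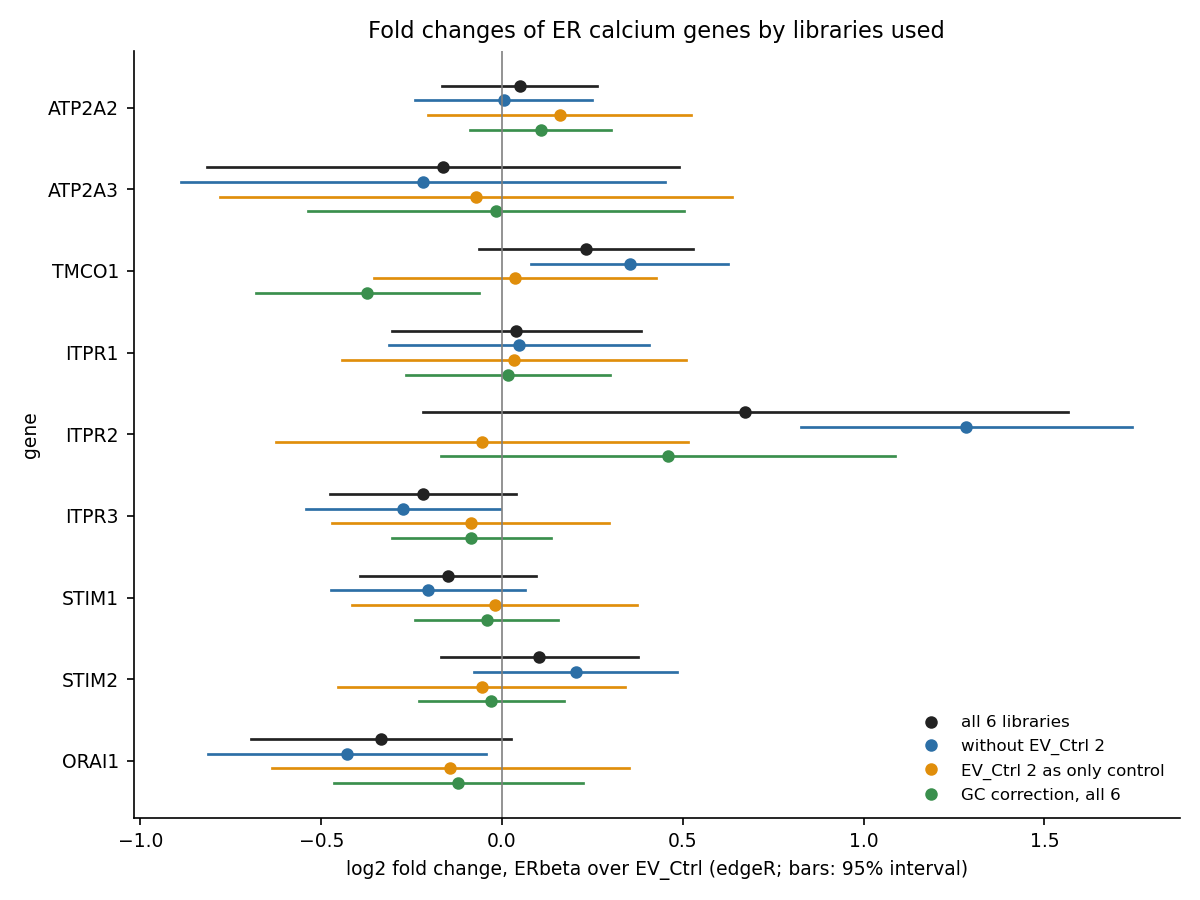
Log2 fold change of ERbeta over EV_Ctrl with its 95% interval (edgeR) for each gene, with all 6 libraries, without EV_Ctrl 2, with EV_Ctrl 2 as the only control, and with GC correction. ITPR2 moves from 1.28 without EV_Ctrl 2 to -0.06 against it alone, and TMCO1 from 0.23 to -0.37 with GC correction.

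The direction of the 9 genes followed their GC content. The 4 with negative log2 fold changes (STIM1, ITPR3, ATP2A3 and ORAI1) had a GC content of 56.2% to 65.8%, and the 5 with positive ones had 36.8% to 51.0%. Across the 9 genes, Spearman's rho between GC content and log2 fold change was -0.95. Across the 16091 tested genes with a GC value it was -0.61, so the members shared this trend with the other genes. These points share the same 6 libraries, and genes are not independent replicates. Of the 8521 tested genes with a GC content in the range of the positive members, 66.4% were positive, and of the 3886 in the range of the negative members 20% were. After GC correction rho over the members was -0.2, with 3 of 9 positive. The correction removes each library's trend with GC content, so a weaker rho is built into it. With EV_Ctrl 2 as the only control, whose GC trend was near that of ERbeta 1 and 2, the members lay between -0.14 and 0.16 without any correction, and ATP2A2 had the highest value. The part of the GC trend in the members' differences was not tested beyond these values.

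**Figure D4:**
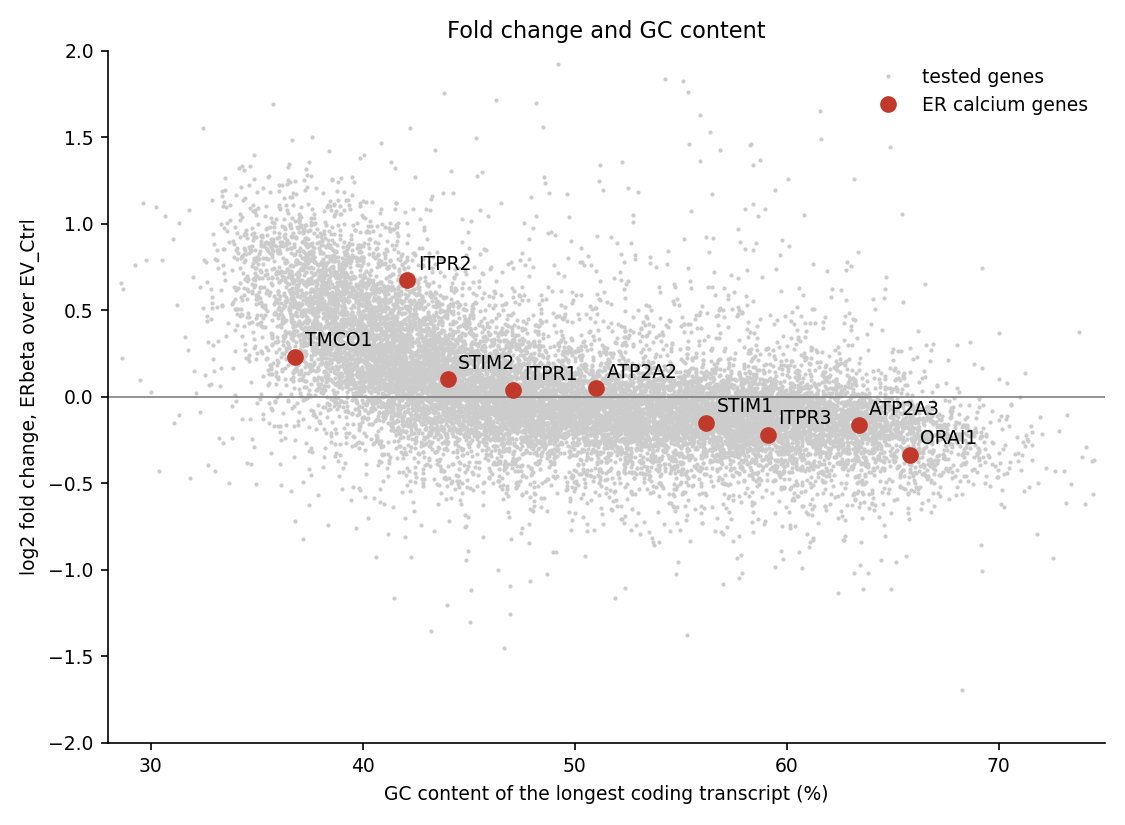
Log2 fold change of ERbeta over EV_Ctrl against the GC content of the longest coding transcript, for the 9 ER calcium genes (red) and 16091 tested genes (grey, 15 of them outside the axes). The members fall from ITPR2 and TMCO1 on the left, above 0, to ORAI1 on the right, below 0, inside the cloud of the other genes.

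Genes around the calcium store were counted from lists of named genes. Among other calcium pumps 5 of 7 passed the filter on low counts, and 0 had an unadjusted p under 0.05 in edgeR's test, which 9.54% of all genes had with higher and 2.88% with lower levels in ERbeta. ATP2B1, the general calcium pump of the plasma membrane, repeated the split of ITPR2, at 161.9, 161.5 and 197.4 CPM in ERbeta 1, 2 and 3 and 70.2, 177 and 69.7 CPM in EV_Ctrl 1, 2 and 3 (log2 fold change 0.71 ± 0.35, edgeR adjusted p = 0.417, and -0.02 with EV_Ctrl 2 as the only control). Without EV_Ctrl 2 it passed at 1.32 (edgeR adjusted p = 7.52e-05), and with GC correction as well at 0.57 (edgeR adjusted p = 0.00291). ATP2B3 was at 0.86 against 1.40 CPM on average, on 99 reads in all, and its groups did not overlap. The SERCA form of fast muscle, ATP2A1, was at 4.25 to 7.95 CPM in ERbeta and 4.86 to 6.62 CPM in EV_Ctrl. Of 8 regulators of SERCA, the muscle peptides PLN, SLN and MRLN had 2, 7 and 2 reads over all 6 libraries, and STRIT1 and SMIM6 had 0. TMX1, an ER thiol oxidoreductase reported to act on SERCA2, was at 42.9 to 64.7 CPM in ERbeta and 26.7 to 42.3 CPM in EV_Ctrl (0.64 ± 0.23, edgeR adjusted p = 0.397). It passed without EV_Ctrl 2, at 0.89 (edgeR adjusted p = 0.00692), but was at -0.07 after GC correction with all libraries. VMP1, an ER membrane protein that regulates SERCA, was at 0.20 ± 0.13 (edgeR adjusted p = 0.519).

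The mRNA levels of calcium release channels other than IP3 receptors were also compared. Of 8 genes for such channels and for calcium leak 7 passed the filter. Their median log2 fold change was 0.01, and 0 were at an unadjusted p under 0.05, against 12.4% of all tested genes. RYR2, the ryanodine receptor of heart, was at 27.3 to 35.4 CPM in ERbeta and 23.4 to 27.1 CPM in EV_Ctrl, without overlap (0.27 ± 0.14, edgeR adjusted p = 0.428). The skeletal muscle form RYR1 was at 9.79 to 11.6 CPM in ERbeta and 10.5 to 11.9 CPM in EV_Ctrl, and RYR3 had 3 reads in all. PSEN2, a presenilin with a proposed role in calcium leak, was at 43.25 to 45.58 CPM in ERbeta and 46.5 to 50.29 CPM in EV_Ctrl. Its groups did not overlap either (-0.12 ± 0.10, edgeR adjusted p = 0.599). Such a lack of overlap was found for 10.2% of all tested genes with higher and 8.48% with lower levels in ERbeta.

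Upstream of the receptors, all 8 genes for IP3 production were tested. Their median log2 fold change was -0.10, with 3 of them higher at an unadjusted p under 0.05, against 9.54% of all tested genes. PLCB1, a phospholipase C that makes IP3 after G protein signals, was at 33.6, 34.1 and 48.1 CPM in ERbeta 1, 2 and 3 and at 12.1, 32.4 and 12.2 CPM in EV_Ctrl 1, 2 and 3. EV_Ctrl 2 thus fell just under the ERbeta range here. Its log2 fold change was 0.99 ± 0.38 with all libraries (edgeR adjusted p = 0.397), 1.67 without EV_Ctrl 2 (edgeR adjusted p = 0.000141), 1.26 with GC correction as well (edgeR adjusted p = 0.000103), and 0.25 with EV_Ctrl 2 as the only control. GNAQ, the G protein subunit that activates it, was at 0.49 ± 0.17 (edgeR adjusted p = 0.397), at 0.66 without EV_Ctrl 2 (edgeR adjusted p = 0.0116) and at 0.01 after GC correction. Of 12 tested regulators of IP3 receptors 3 were higher at an unadjusted p under 0.05 (9.54% of all tested genes), with a median of 0.01. They included ERP44, a luminal thiol protein that binds ITPR1, at 88.4 to 93.9 CPM in ERbeta and 50.6 to 78.9 CPM in EV_Ctrl (0.57 ± 0.17, edgeR adjusted p = 0.397, 0.14 after GC correction). The scaffold HOMER1 was at 36.9 to 57.2 against 28.8 to 34.6 CPM (0.57 ± 0.17, edgeR adjusted p = 0.397, 0.23 after GC correction). Without EV_Ctrl 2 both passed, ERP44 at 0.80 and HOMER1 at 0.66 (edgeR adjusted p = 0.000983 and 0.0305), and with GC correction as well neither did (edgeR adjusted p = 0.509 and 0.505).

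For store-operated entry outside the members all 10 genes were tested, 4 of them higher at an unadjusted p under 0.05 (9.54% of all tested genes), with a median of -0.01. TRPC1, a cation channel linked to store depletion, was at 0.67 ± 0.22, and ASPH, whose junctate form binds ER calcium, at 0.51 ± 0.19 (edgeR adjusted p = 0.397 for each). After GC correction these were 0.25 and 0.16. Without EV_Ctrl 2 they passed at 0.97 and 0.76 (edgeR adjusted p = 0.00345 and 0.00131), and with GC correction as well they did not (edgeR adjusted p = 0.23 and 0.2). Mitochondrial calcium uptake had 12 tested genes with a median of 0.03, 2 of them higher at an unadjusted p under 0.05 (9.54% of all tested genes). These were MICU3 and MICU2, regulatory subunits of the mitochondrial calcium uniporter, at 0.92 ± 0.33 and 0.78 ± 0.30 (edgeR adjusted p = 0.397 for each). Without EV_Ctrl 2 they passed at 1.57 and 1.28 (edgeR adjusted p = 0.000666 and 9.63e-05). With GC correction as well MICU2 passed at 0.66 (edgeR adjusted p = 0.00239) and MICU3 did not, at 0.56 (edgeR adjusted p = 0.166). MICU2 repeated the split of the controls, at 59.9 to 68.8 CPM in ERbeta, 57.3 CPM in EV_Ctrl 2 and 27.02 and 25.6 CPM in EV_Ctrl 1 and 3.

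Of the luminal calcium binders 10 of 12 were tested. At an unadjusted p under 0.05, 5 were higher and 1 lower (9.54% and 2.88% of all tested genes), the median log2 fold change was 0.18, and 0 passed after adjustment. The list holds HSPA5 and other chaperones, which buffer calcium as well as fold proteins. RCN2, a calcium binder of the secretory pathway, was at 249.2 to 270 CPM in ERbeta and 172 to 222 CPM in EV_Ctrl (0.45 ± 0.12, edgeR adjusted p = 0.397), and 0.14 after GC correction. It passed without EV_Ctrl 2, at 0.58 (edgeR adjusted p = 0.00408), but not with GC correction as well, at 0.12 (edgeR adjusted p = 0.575). HSPA5 was at 0.70 after GC correction and at 0.72 with EV_Ctrl 2 as the only control. Unlike that of ITPR2, its level in EV_Ctrl 2 was near those of the other controls. The calsequestrins CASQ1 and CASQ2, the calcium buffers of muscle, had 8 reads each.

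Partners of TMCO1 in the translocon were the last list. All 8 were tested, and 1 was positive, against 48.3% of all tested genes. The median log2 fold change was -0.12, and 0.02 after GC correction. At an unadjusted p under 0.05 there were 0 of them, against 12.4% of all tested genes. CCDC47, a calcium-binding ER membrane protein of this complex, was the positive gene, at 151 to 183 CPM in ERbeta and 118 to 159 CPM in EV_Ctrl (0.27 ± 0.14, edgeR adjusted p = 0.434, 0.03 after GC correction). NOMO2 was at -0.20 ± 0.12, but reads of the near-identical NOMO genes may be split between the copies.

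**Figure D5:**
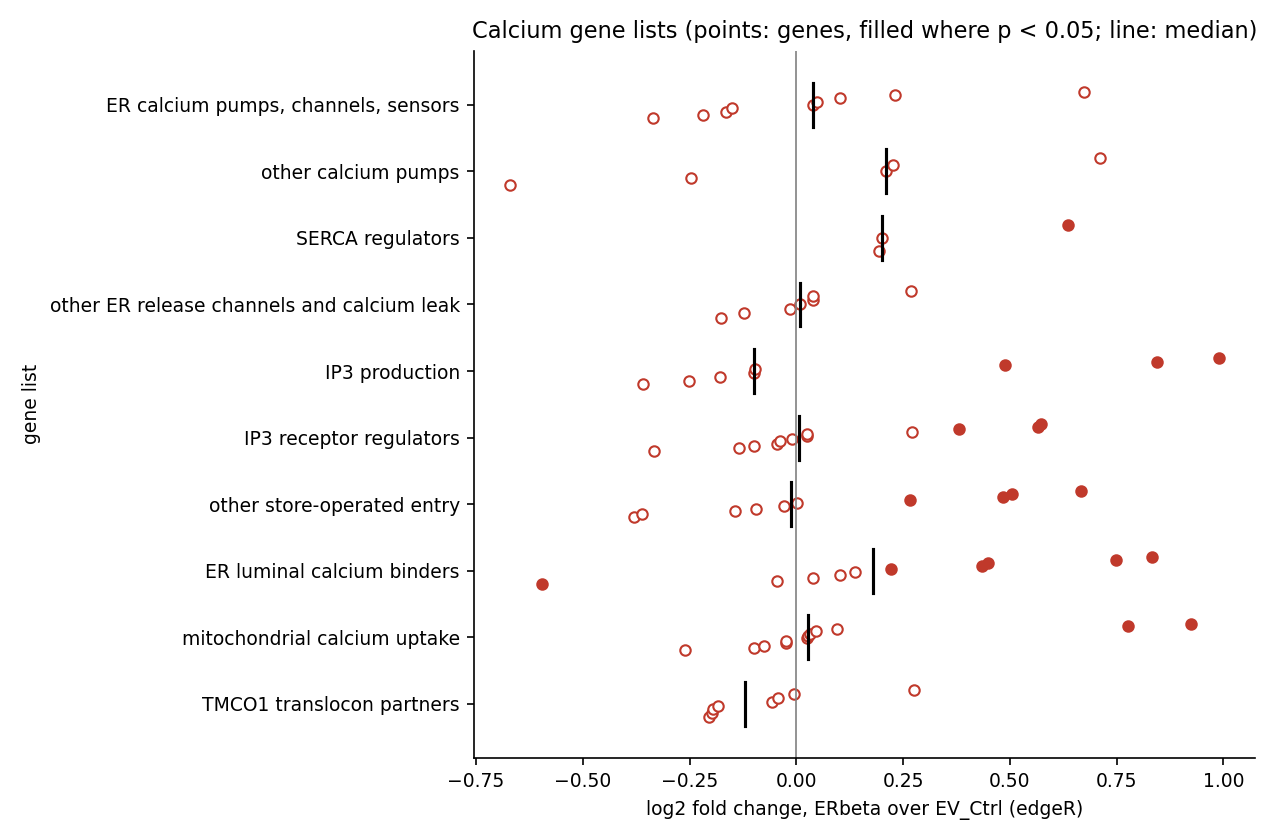
Log2 fold change of ERbeta over EV_Ctrl (edgeR) for the tested genes of each list, filled where the unadjusted p was under 0.05, with the median of the list as a line. The ER calcium genes have 0 filled points of 9 and a median of 0.04, and the luminal calcium binders have 6 filled points of 10 and a median of 0.18.

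In the authors' deposited table, made with DESeq2, the log2 fold changes of all 9 members had the same sign as those computed here. That table gave ITPR2 a log2 fold change of 0.38 ± 0.19 (adjusted p = 0.175) and ORAI1 one of -0.28 ± 0.13 (adjusted p = 0.147). DESeq2 as run here gave 0.68 ± 0.37 for ITPR2 and -0.34 ± 0.205 for ORAI1. The DESeq2 version behind the deposited table is not named, and its measure of size may differ. Before adjustment both genes were under 0.05 in the authors' DESeq2 Wald test (p = 0.0425 for ITPR2 and 0.0302 for ORAI1), unlike in edgeR's test here. The authors' deposited table holds an adjusted p for 8 members, and 0 of them were under 0.05, against 421 of 11150 genes (3.78%). The genes whose log2 CPM over the 6 libraries was most like that of ATP2A2, among 11213 searched, were ZNF3, PER2 and SKAP2 (Pearson's r 0.99, 0.987 and 0.98). For ORAI1 they were STK38, BIN1 and NOP14-AS1 (0.993, 0.985 and 0.984). With 6 libraries and so many genes, these are only the nearest of many profiles.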

How the data were processed

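Poly(A) RNA libraries (TruSeq Stranded mRNA, per the labels' protocols) were aligned and counted by the submitters. Their processing notes name TopHat2, featureCounts, DESeq2 and the build hg38, without versions, annotation or strand setting. The authors deposited raw read counts per gene, and a table of their DESeq2 comparison with a mean signal, a log2 fold change, scores (standard error and Wald statistic) and p-values, per the file headers. Symbols were found for 56105 of 64299 identifiers. 0 rows named no gene and 0 columns lay outside the 6 libraries.

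Counts were filtered (filterByExpr, minimum count 10, minimum total 15), scaled by TMM and tested with edgeR 4.0.16 (quasi-likelihood, group only) in R 4.3.3, adjusted over 16243 genes. Tested genes hold 99.81% to 99.84% of each library's reads. Standard errors and intervals were computed from the F statistic. Whether replicates were separate cultures is not in the labels, and the p-values reflect only how these libraries vary, possibly for technical reasons. No pair within a group agreed within counting noise (chi-square per degree of freedom 4.63 to 34.1). Lengths, GC content and positions are from GENCODE 29 (GRCh38), using the longest protein-coding transcript, and promoters from RefSeq (GRCh38.p14). GC correction entered a loess curve of log2 CPM on GC content (span 0.5) per library as an offset, for the 99.1% of genes with a value. Shares were compared by exact permutation.

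The members and lists were chosen with earlier results of these data known. Named genes are all members, up to 2 genes per other list with the smallest p, and the tissue forms, paralogs, partner and ER stress landmarks set by name, plus the 3 genes most like 2 members. Some SERCA peptides, calsequestrins, RYR3 and markers are named beside these for their read totals. Alternatives were DESeq2 1.42.0 (size factors and test), limma-voom (limma 3.58.1), library size only, other filters, a replicate block, an adjusted p under 0.01, omitted libraries, GC correction and other lengths. The steps were tested on simulated counts with known fold changes. These had no GC trend and no control resembling ERbeta, so that test does not cover the effect of either on the calls.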

Additional observations from a re-analysis of the deposited data

How the results depend on the processing

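The number of genes called was 0 in edgeR's test and stayed at 0 with DESeq2 size factors, library size only, at least 1 CPM in every library, an adjusted p under 0.01, GC correction and EV_Ctrl 2 as the only control. It was 51 without a filter on low counts, 57 in DESeq2's test, 1 in limma-voom, and 0 to 2324 when leaving out 1 library, the 2324 being those without EV_Ctrl 2. With GC correction and EV_Ctrl 2 left out it was 1637. Of the 9 members 0 were called under these settings, except for 1 (ITPR2, 1.28) without EV_Ctrl 2, a range of 0 to 1 over the left-out libraries, and 2 (ITPR2 at 0.92 and, lower, TMCO1 at -0.49) with GC correction and EV_Ctrl 2 left out. The cause was not tested. Of 144 member values under the alternatives 132 kept sign and side of the threshold, 2 newly passed with the same sign (both ITPR2) and 10 turned sign. Among those 10, TMCO1 also passed with GC correction and EV_Ctrl 2 left out. With library size only ATP2A2 was at -0.05 and ITPR1 at -0.0577. With GC correction STIM2 was at -0.0291 and TMCO1 at -0.37. With EV_Ctrl 2 as the only control ITPR2 was at -0.055 and STIM2 at -0.0561. Over the left-out libraries ATP2A3 ranged from -0.45 to 0.0509 and ITPR1 from -0.10 to 0.15. ITPR3, STIM1 and ORAI1 kept a negative sign in all 16 alternatives.

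Of the shares, the ITPR1 difference was -0.195 percentage points with counts not divided by length and, over the left-out libraries, ranged from -0.667 (without ERbeta 3) to 0.421 (without ERbeta 2), with -0.36 without EV_Ctrl 2. Against EV_Ctrl 2 alone the ITPR2 difference was -0.136 and the STIM1 difference 0.546. A length from all annotated exons, added after the data were seen, turned no sign.

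With the replicate number as a block edgeR called 0 genes and 0 members. Whether same-numbered libraries were prepared together is not in the labels. Their deviations from the group means correlated at 0.233, -0.136 and -0.152, and those of differently numbered libraries at -0.366 to 0.36. With 3 libraries a group, 1 of them unlike the other controls, these values cannot decide it. ATP2A3 had the fewest reads of the members, 30 to 141 per library, and a fold interval of 0.568 to 1.4.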
